A study of Mus musculus with 6 samples.

Results

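The genes described here are 10 genes of brain endothelial cells and the blood-brain barrier, chosen by name: Pecam1, Cdh5, Tie1, Flt1, Kdr, Cldn5, Ocln, Slc2a1, Abcb1a and Slco1c1. They are 10 of the 24553 genes and unmatched rows of the deposited count table. Of the 10, 8 had counts and passed the low-count filter, and 2, Pecam1 and Slco1c1, were listed at 0 in all 6 libraries. RNA was sequenced from snap-frozen cortex of male C57BL/6J mice that were 15 weeks old and had had a stroke 14 days earlier. The control group of 3 libraries received salt-matched drinking water, and the SCFA group of 3 libraries received short-chain fatty acids, small acids that gut bacteria make from fibre, with either offered freely during 4 weeks from an age of 6 to 8 weeks. The drinking water of both groups also held 5% sucrose and 4 antibiotics, which were vancomycin, ampicillin, neomycin and metronidazole. The question is what SCFA treatment changes in the cortex after stroke. Each library was taken as 1 mouse, since the submitters give 3 mice in each group. The sources used here do not give the hemisphere sampled.

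Endothelial cells line the vessels of the brain and are joined by tight junctions, so that few solutes pass between them. What the brain needs then has to cross the cells through transporters, while efflux pumps return foreign compounds to the blood. Vascular endothelial growth factor (VEGF) receptors on the same cells govern vessel growth and permeability, and this barrier is known to leak and to be rebuilt after stroke. In bulk tissue a lower count of an endothelial gene can come from fewer endothelial cells or from less RNA per cell, and these cannot be told apart.

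Total counts were 9275252 to 13862756 per library, of which 1 unmatched row took 35.0% to 55.3%. In each group 1 library stood apart over all genes tested. The first principal component, with 50% of the variance, held control 2 at 109.2 and the others between -25.77 and -17.74, and control 2 had counts for 13013 genes against 14948 to 15694. On the second (15.3%), SCFA 2 lay at 51.59 and the others at 9.537 or less. Markers of the exocrine pancreas, a tissue the labels do not name, summed to 32.4 to 337 CPM (counts scaled to library size) in controls and 0.275 to 1.15 CPM with SCFA, over all 8 listed markers, and their part in the results below was not tested. Control 3 stood apart in meningeal fibroblast markers, which summed to 1220 CPM there and 232 to 356 CPM elsewhere. Most of that sum was Col1a1 (710 CPM) and Col1a2 (411 CPM), and its part was not tested either. A log2 fold change or list median that turned its sign or moved by more than 1.5 times without control 2, SCFA 2 or both is given without them as well.

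The start regions of Slc2a1 and Flt1, the genes whose groups did not overlap, and of Tie1, an endothelial gene with nearly the same level in all 6 libraries, are shown to set them side by side. They are the 250 bases before 1 RefSeq start site of each gene on the gene's own strand (GRCm38.p6), at chr4:119108495-119108744 (plus strand), chr5:147726012-147726261 (minus strand) and chr4:118489850-118490099 (minus strand). Capitals mark the letters AGGAAG or CTTCCT, a core bound by ETS factors, which are transcription factors known for endothelial genes. They also mark ACGTG or CACGT, 1 form of the core of the hypoxia response element. Both strands were searched for these letters alone, so other forms of either core are neither marked nor counted. The start sites of Slc2a1 and Tie1 are the ends of the annotated genes, while that of Flt1 lies 427 bases inside the annotated gene, whose span begins further upstream.
Slc2a1: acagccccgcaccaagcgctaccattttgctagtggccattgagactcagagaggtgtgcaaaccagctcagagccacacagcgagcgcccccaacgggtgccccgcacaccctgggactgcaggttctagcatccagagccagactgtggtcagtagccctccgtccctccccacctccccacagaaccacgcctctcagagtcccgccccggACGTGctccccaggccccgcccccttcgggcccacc
Flt1: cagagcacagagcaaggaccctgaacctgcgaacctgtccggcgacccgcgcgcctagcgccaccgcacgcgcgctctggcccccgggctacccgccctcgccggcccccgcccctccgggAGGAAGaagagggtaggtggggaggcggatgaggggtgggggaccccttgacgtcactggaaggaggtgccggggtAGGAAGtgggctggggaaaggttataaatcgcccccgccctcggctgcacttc
Tie1: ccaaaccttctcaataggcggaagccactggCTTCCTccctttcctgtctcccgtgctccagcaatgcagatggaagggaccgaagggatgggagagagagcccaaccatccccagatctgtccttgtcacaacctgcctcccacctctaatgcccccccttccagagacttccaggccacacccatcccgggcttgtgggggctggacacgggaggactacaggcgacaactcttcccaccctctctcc
Flt1 held 2 matches to the searched form of the ETS core, Tie1 held 1 and Slc2a1 held 0. Of all 32851 promoter windows of this length, 29.5% held at least 1. Slc2a1 held 1 match to the hypoxia core and the other 2 held 0, where 16.6% of all windows held at least 1. The base composition also differed, with 66.4% G or C and 13 CpG in Slc2a1, 70.4% and 23 in Flt1, and 60.4% and 6 in Tie1, against medians of 52.4% and 6 over all windows. A match is a description of the letters and not a binding site. Promoter windows were found for 8 of the 10 genes, and the 3 shown were chosen by their levels. Of those not shown, Abcb1a, whose groups overlapped, also held 2 ETS matches. Slco1c1 held 1, and Kdr, Cldn5 and the 2 windows of Ocln held 0. All of these held 0 matches to the hypoxia core. The level of Tie1 stood on 23 to 41 counts per library, so it is a weak contrast.

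With SCFA, 0 of the 8 measured genes passed the test over all genes in either direction (edgeR, p under 0.05 after Benjamini-Hochberg adjustment), where 0.00835% of the 11969 genes tested were called higher and 0.0752% lower, 0.0835% in all. Of the 9 genes called lower, 8 were the exocrine pancreas markers, and the 1 called higher, named after its value was seen, was Laptm5, a lysosomal membrane protein of blood cells and microglia. At an unadjusted p under 0.05, 2 of the 8 were higher, Slc2a1 and Flt1, and 0 were lower, against 2.97% and 2.79% of all genes (356 and 334, or 430 and 56 with total counts in place of TMM scaling). With DESeq2 and limma-voom the count past the adjusted threshold was also 0, and 2 had an unadjusted p under 0.05. That number was 1 without control 2, 1 without SCFA 1, and 0 without SCFA 2 or without both control 2 and SCFA 2 (edgeR). The log2 fold change was above 0 in 7 of the 8 genes, and their median was 0.39, beside 0.01 over all genes tested. Without control 2 the median was 0.16 with 5 of 8 above 0, without SCFA 2 it was 0.38 with 6 of 8, and without both 0.19 with 5 of 8. Since the genes were chosen with earlier results of these data known, these counts describe them and test nothing.

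**Figure D1:**
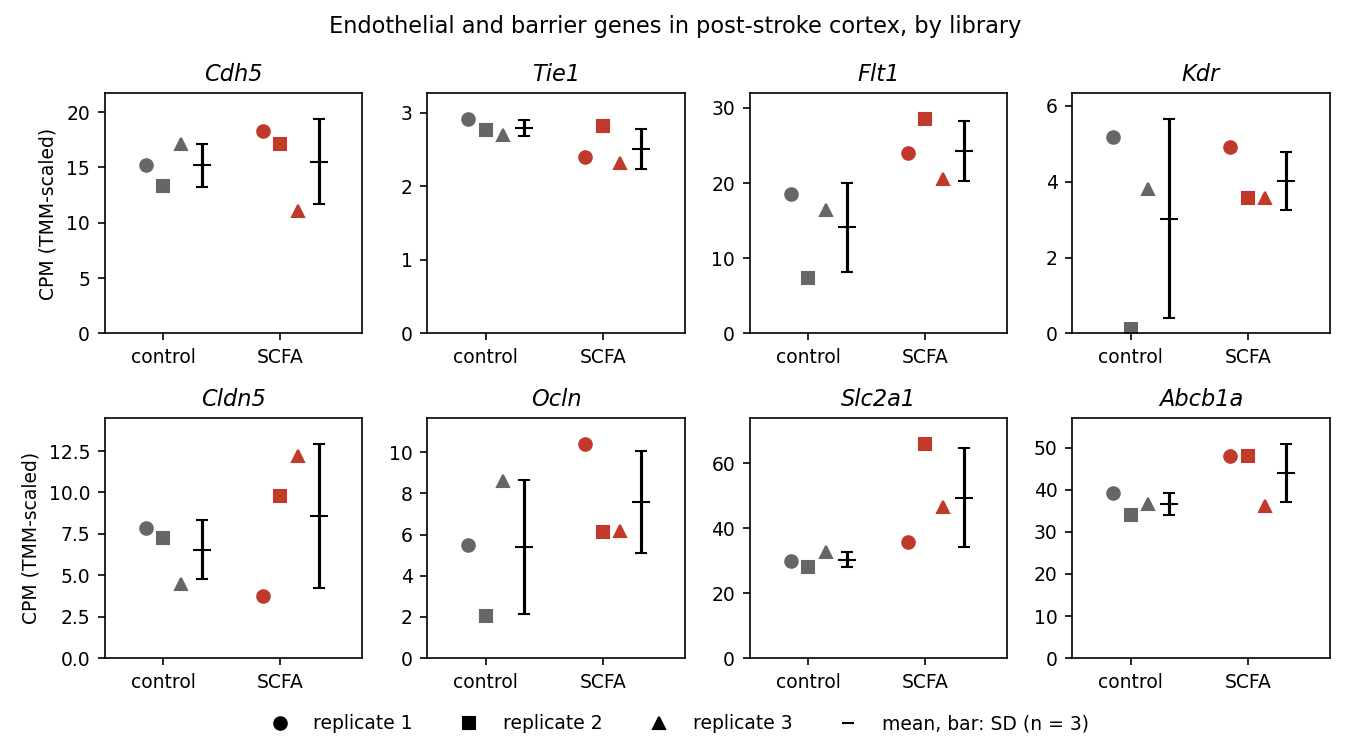
Level of the 8 measured genes in each library, in TMM-scaled CPM, with controls in grey and SCFA in red, replicates by symbol, and the mean with its SD (n = 3) beside each group. Slc2a1 and Flt1 are the panels in which all 3 SCFA points lie above all 3 controls, and control 2 lies at 0.115 CPM for Kdr.

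Among the transporters, Slc2a1 encodes GLUT1, the main glucose transporter of brain endothelium, which astrocytes make as well. It lies on chromosome 4 from 119108745 to 119137330 (GRCm38). Its level was 30.0, 28.1 and 32.7 CPM in controls 1 to 3 and 35.7, 66.0 and 46.7 CPM in SCFA 1 to 3. The controls lay close together, every SCFA library lay above them, and the SCFA libraries were spread widely, with SCFA 2 highest. The exact Poisson 95% intervals for counting error of SCFA 1 (32.0 to 39.7 CPM) and control 3 (29.3 to 36.5 CPM) overlapped. The means were 30.3 ± 2.32 and 49.5 ± 15.3 CPM (SD, n = 3 each), a 1.63-fold difference or a log2 fold change of 0.71 (SE 0.229, 95% interval 0.216 to 1.2) that did not pass (edgeR, adjusted p = 0.864, unadjusted p = 0.00831, rank 103 of 11969). The value moved with single libraries. Without SCFA 2 it was 0.45 (adjusted p = 1), without SCFA 1 it was 0.90, and without control 2 and SCFA 2 together 0.40.

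Abcb1a encodes P-glycoprotein, the efflux pump that keeps many drugs out of the brain. It measured 39.3, 33.9 and 36.6 CPM in controls and 48.1, 48.0 and 36.1 CPM with SCFA. SCFA 1 and SCFA 2 lay above every control and SCFA 3 lay among them, so the groups overlapped. Its log2 fold change was 0.27 (SE 0.192, 95% interval -0.148 to 0.681, edgeR adjusted p = 0.902), and the interval leaves room for no change as well as for a rise of about that size or more. Without control 2 and SCFA 2 together it was 0.15. Reads shared with its close copy Abcb1b, which had 498 counts in all, may have been split or dropped, so both levels are uncertain.

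Slco1c1, a carrier of thyroid hormone at the barrier, had 0 counts in each of its 2 transcript rows in every library, and so did Pecam1, the adhesion molecule CD31 of endothelial junctions, in each of its 4 rows. The 8 genes with counts all had 1 row. Over the table, 29.4% of protein-coding genes with 2 or more rows stood at 0 in all libraries, against 17.1% of those with 1 row. In 8 further vascular lists, 19 of 51 genes with several rows were at 0 and 0 of 101 with 1 row. The 0 of Pecam1 and Slco1c1 was therefore not read as absence from the cortex. For Flt1, Kdr and Ocln the RefSeq table used here holds 2, 2 and 5 curated transcripts where the count table has 1 row, so a soluble form of Flt1 could not be told from the receptor.

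The VEGF receptors were Flt1 (VEGFR1, which binds VEGF with high affinity and has a decoy form) and Kdr (VEGFR2, the main signalling receptor). Flt1, on chromosome 5 from 147561604 to 147726438, measured 18.5, 7.38 and 16.4 CPM in controls and 24.0, 28.5 and 20.5 CPM with SCFA. The groups did not overlap, and control 2 lay well under the other controls. The Poisson 95% intervals for counting error of SCFA 3 (18.1 to 23.0 CPM) and control 1 (16.1 to 21.0 CPM) overlapped. With total counts in place of TMM the groups did overlap, since SCFA 3 (19.8) lay under control 1 (20.7). The log2 fold change was 0.78 (SE 0.32, 95% interval 0.0918 to 1.47), a 1.72-fold difference that did not pass (edgeR, adjusted p = 0.864, unadjusted p = 0.0293). Without control 2 it was 0.48 (unadjusted p = 0.0725), and without control 2 and SCFA 2 together 0.35 (unadjusted p = 0.193).

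Of all genes tested, 6.42% had every SCFA library above every control, as Slc2a1 and Flt1 did, and 5.74% had every SCFA library below. The 2 of 8 genes here are read against that background, and no list test was made. Kdr, on the same chromosome from 75932827 to 75979072, was counted 64, 1 and 38 times in the control libraries and 47, 52 and 48 times in the SCFA libraries. Its single count in control 2 stood for 0.115 CPM, with an exact Poisson 95% interval of 0.00292 to 0.642 CPM for counting error, while the other 5 libraries lay between 3.57 and 5.18 CPM. Apart from control 2 the groups overlapped. The log2 fold change of Kdr was 0.39 (SE 0.815, 95% interval -1.37 to 2.15) with all libraries and -0.17 (SE 0.467) without control 2 or -0.09 without control 2 and SCFA 2, so its direction rested on that library.

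The third receptor, Tie1, is an endothelial partner of the angiopoietin receptor Tek. It was the gene with the least spread, at 2.91, 2.77 and 2.70 CPM in controls and 2.40, 2.82 and 2.31 CPM with SCFA. The groups overlapped within a range of 1.26-fold, although each value stood on only 23 to 41 counts. The log2 fold change was -0.15 (SE 0.625, 95% interval -1.5 to 1.19, edgeR adjusted p = 0.981), and it became 0.03 with total counts in place of TMM, under which the median over all genes was 0.18 and not 0.01. Without SCFA 2 it was -0.24 and without control 2 and SCFA 2 -0.25. The interval is wide enough to hold a 2-fold change in either direction.

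Cdh5 encodes VE-cadherin, the adherens junction protein that defines endothelium. It measured 15.2, 13.3 and 17.1 CPM in controls and 18.3, 17.1 and 11.1 CPM with SCFA. SCFA 1 was highest and SCFA 3 lowest, so the controls lay inside the range of the SCFA group. The means were 15.2 ± 1.93 and 15.5 ± 3.85 CPM (SD, n = 3 each), with a log2 fold change of 0.02 (SE 0.283, 95% interval -0.587 to 0.634, edgeR adjusted p = 0.995). That value was under 0 without control 2 (-0.07), SCFA 1 (-0.10), SCFA 2 (-0.05) or control 2 and SCFA 2 together (-0.15), so no direction was read from it.

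The tight junction genes measured were Cldn5 and Ocln. Cldn5 encodes claudin-5, the claudin that seals brain endothelium, and lies on chromosome 16 from 18776847 to 18778262. It measured 7.85, 7.26 and 4.50 CPM in controls and 3.76, 9.76 and 12.2 CPM with SCFA. SCFA 3 and SCFA 2 were the highest of the 6 libraries and SCFA 1 was the lowest. On the log2 scale the fold change was 0.40 (SE 0.456, 95% interval -0.588 to 1.38, edgeR adjusted p = 0.947), between 0.06 without SCFA 3 and 0.75 without SCFA 1.

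Ocln encodes occludin, a membrane protein of the same junctions. It measured 5.50, 2.07 and 8.61 CPM in controls and 10.4, 6.12 and 6.18 CPM with SCFA. Control 2 was lowest and SCFA 1 highest, the reverse of what Cldn5 showed in SCFA 1. For Ocln the log2 fold change was 0.48 (SE 0.505, 95% interval -0.609 to 1.57, edgeR adjusted p = 0.94), but 0.10 without control 2, 0.23 without control 2 and SCFA 2, 0.19 without SCFA 1 and 0.98 without control 3. Within a library the log2 CPM of Cldn5 minus that of Ocln ran from -1.43 in SCFA 1 and -0.91 in control 3 to 1.72 in control 2, so these 2 genes of 1 structure did not keep a fixed ratio between mice.

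**Figure D2:**
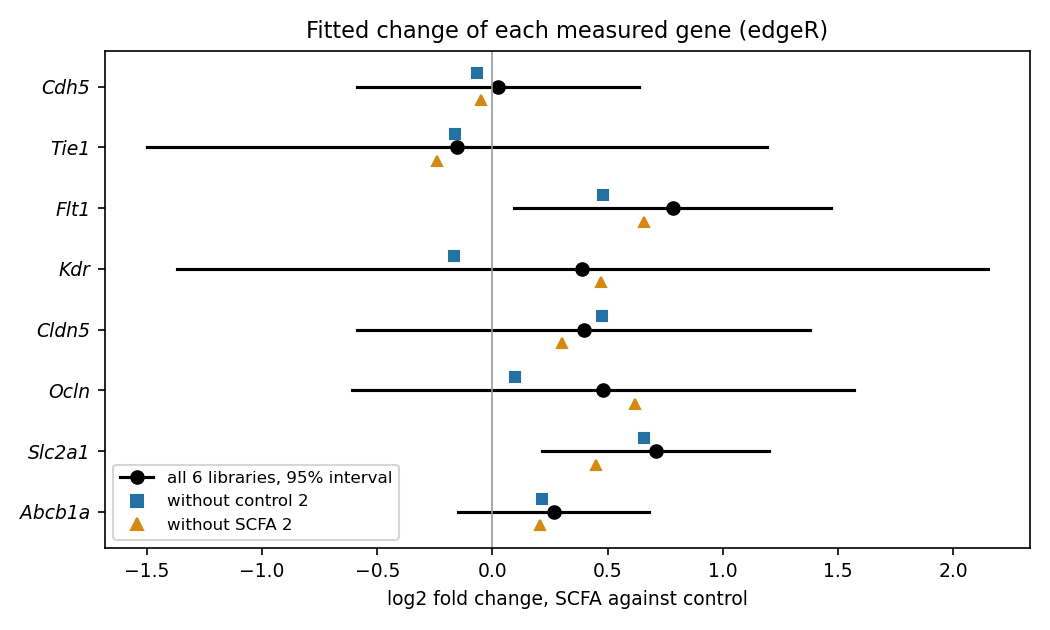
Log2 fold change of SCFA against control for the 8 measured genes, with all 6 libraries (black, with the 95% interval from edgeR), without control 2 (blue squares) and without SCFA 2 (orange triangles). The intervals of Slc2a1 and Flt1 lie above 0 before adjustment, and the blue square of Kdr at -0.17 lies on the other side of 0 from its black point at 0.39.

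Set against transcript length, the order of the levels was Slc2a1, Abcb1a, Cldn5, Cdh5, Flt1, Ocln, Tie1 and Kdr. Slc2a1 averaged 12.2 ± 4.41 CPM per kilobase over the 6 libraries (SD), Abcb1a 8.07 ± 1.24 and Cldn5 5.34 ± 2.24. The endothelial adhesion gene Cdh5 averaged 3.84 ± 0.682 CPM per kilobase, Flt1 2.78 ± 1.04 and Ocln 1.60 ± 0.705. Tie1 at 0.648 ± 0.0592 and Kdr at 0.595 ± 0.305 CPM per kilobase were lowest. Slc2a1 exceeded Abcb1a and Flt1 exceeded Ocln in 6 of 6 libraries. Cldn5 exceeded Cdh5 in 4 of 6 and Tie1 exceeded Kdr in 3 of 6, so neither pair was ordered beyond its spread. The lengths are those of GENCODE transcripts paired with the table's rows, and the library chemistry may not cover all of a transcript evenly.

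Control 2 was the lowest library for 5 of the 8 genes (Slc2a1, Flt1, Kdr, Ocln and Abcb1a), where it was lowest for 31.2% of all genes tested. SCFA 2 was the highest library for 2 of the 8, against 20.4% of all genes. The level in control 2 relative to the mean of the other 2 controls was 0.0257 for Kdr, 0.294 for Ocln and 0.423 for Flt1, and 0.893 for Abcb1a and 0.896 for Slc2a1. Cdh5, Tie1 and Cldn5 stood at 0.82, 0.985 and 1.18. The TMM factor of control 2 was 0.761, the smallest of the 6. Total counts would lower all its levels by 1 factor and leave the differences among its genes as they are. In control 2 the log2 CPM of the 8 genes lay on average 0.83 below their own means over the 6 libraries, where all genes tested lay 0.19 below. The vascular lists described further on differed there. The average deviation in control 2 was -1.35 over the VEGF and angiopoietin list, -0.55 over activation and leakage and -0.49 over junctions, but 0.15 over the 16 tested of 25 other endothelial identity genes and 0.48 over mural genes. For the identity genes control 3 was the lowest library, at -0.50.

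**Figure D3:**
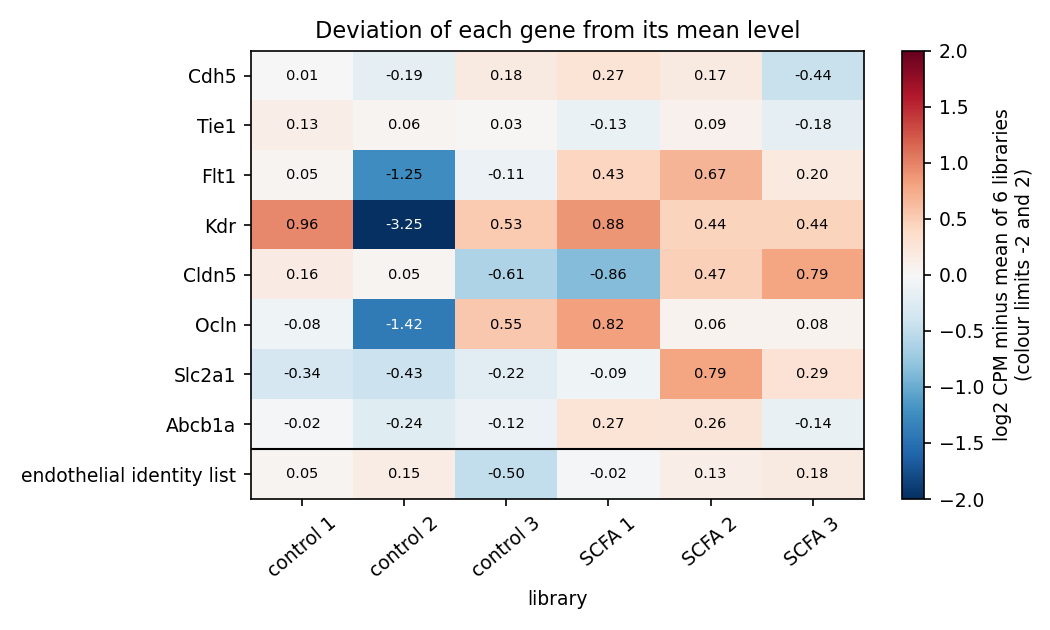
Log2 CPM of each gene in each library minus its mean over the 6 libraries, with the mean of 16 other endothelial identity genes in the bottom row. Control 2 is low for Kdr (-3.25), Ocln (-1.42) and Flt1 (-1.25) and close to the mean for Tie1, Cldn5 and the identity list.

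Across the 6 libraries, Flt1 followed the mean log2 CPM of the other 7 genes most closely (Pearson r = 0.978, and 0.945 over the 5 libraries without control 2). Kdr and Ocln went from 0.82 and 0.751 to -0.425 and -0.486 without control 2, so their likeness to the rest rested on it. Slc2a1 and Abcb1a gave 0.553 and 0.67, and 0.573 and 0.735 without control 2. Cldn5, Tie1 and Cdh5 gave -0.139, -0.233 and 0.318, and -0.359, -0.011 and -0.0388 without control 2, so Cdh5 turned its sign. These r values describe 6 libraries that share their scaling and carry no test.

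Measured against Cdh5 in the same library, the log2 CPM of Slc2a1 was higher by 0.973, 1.08 and 0.928 in controls and by 0.96, 1.94 and 2.06 in SCFA 1 to 3. In SCFA 1 the distance between the glucose transporter and the endothelial adhesion gene was thus that of the controls, and in SCFA 2 and SCFA 3 it was about 1 log2 unit larger. Against the 16 identity genes the difference for Slc2a1 was 2.22, 2.03 and 2.89 in controls and 2.54, 3.27 and 2.73 with SCFA, which overlap. For Flt1 the same difference was 1.52, 0.122 and 1.91 in controls and 1.97, 2.06 and 1.55 with SCFA, and the groups overlapped as well.

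Among genes outside the list, the 5 whose log2 CPM over the 6 libraries was most like the mean of the 8 genes were Selenop, a secreted selenium carrier (r = 0.998), Ccnt1, a cyclin of transcription elongation (0.997), Kcnip2, a potassium channel partner (0.996), Thtpa, a thiamine triphosphatase (0.995), and a row with no gene symbol (0.994). All 5 were low in control 2, for example Ccnt1 at 5.30 CPM there against 19.2 to 30.5 CPM elsewhere. Over the other 5 libraries their r lay between 0.924 and 0.974. They are named for the pattern alone.

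The wider vascular programme was described with 8 lists holding 152 genes, of which 99 had enough counts to be tested. None of the 99 passed (edgeR, 0 genes higher and 0 lower), and at an unadjusted p under 0.05 there were 9 higher and 1 lower, beside 2.97% and 2.79% of all genes. Of the 99, 66 had a log2 fold change above 0 (66.7%, beside 50.9% of all genes), with a median of 0.21 that was 0.26 without control 2, 0.13 without SCFA 2 and 0.21 without both. Every SCFA library lay above every control for 18 of the 99 (18.2%) and below for 2 (2.02%), beside 6.42% and 5.74% of all genes. Among the 18, Flt4, Slc38a5, Wnt7a and Slco2b1 passed the low-count filter only with their SCFA libraries, in which they were higher. The counts over the 99 therefore describe the genes and test nothing.

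Over the 16 tested of 25 endothelial identity genes, the median log2 fold change was 0.33, with 10 above 0. Fli1, an ETS factor of blood and endothelium, measured 11, 13.1 and 10.3 CPM in controls and 17.0, 15.3 and 15.0 CPM with SCFA (log2 fold change 0.46, SE 0.27). Clec14a, an endothelial surface lectin, measured 2.75, 9.91 and 3.00 CPM in controls and 1.57, 3.30 and 2.46 CPM with SCFA (-1.08, SE 0.64), and its value was -0.23 without control 2 and -0.51 without control 2 and SCFA 2. The angiopoietin receptor gene Tek, Erg, Robo4 and Sox17 were listed at 0, all with several rows. Junction genes had a median of 0.41 over 9 tested of 18, with 8 above 0, and of 0.25 without control 2 and 0.23 without control 2 and SCFA 2. Jup, the plakoglobin gene of adhesive junctions, measured 19.7, 12 and 19.9 CPM in controls and 21.3, 31.4 and 25.1 CPM with SCFA (0.59, SE 0.268, edgeR adjusted p = 0.864), and its value was 0.39 without control 2 and 0.23 without both. Jam3, a junctional adhesion molecule, measured 0.41 (SE 0.262) on the log2 fold change scale.

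Barrier transport genes had a median of 0.24 over 18 tested of 24, with 11 above 0, and the groups did not overlap in 9, of which 7 were higher with SCFA (38.9% of the 18, beside 6.42% of all genes) and 2 lower (11.1%, beside 5.74%). Slc16a1 encodes MCT1, the carrier that moves lactate, ketone bodies and short-chain fatty acids. It measured 29.9, 19.9 and 23.1 CPM in controls and 35.7, 50.3 and 43.2 CPM with SCFA (log2 fold change 0.82, SE 0.223, edgeR adjusted p = 0.795). Slc7a5, the light chain of the large neutral amino acid transporter, measured 17.2, 15.4 and 15.0 CPM in controls and 22.4, 35.7 and 25.9 CPM with SCFA (log2 fold change 0.82, SE 0.247, edgeR adjusted p = 0.864). In both genes SCFA 2 was highest, and without it the values were 0.70 and 0.61. The other 5 of the 7, named after their values were seen, were Slc3a2 (0.70, SE 0.615), the heavy chain that pairs with Slc7a5, the organic anion carriers Slco1a4 (0.47, SE 0.213) and Slco2b1 (1.32, SE 0.858), Abcb1b (0.59, SE 0.374) and the fatty acid transporter Slc27a1 (0.24, SE 0.2). The 2 lower, also named afterwards, were the efflux pumps Abcc1 (-0.50, SE 0.263) and Abcc5 (-0.23, SE 0.148). Tfrc, the transferrin receptor, and Mfsd2a, the lipid carrier that limits transcytosis, overlapped, with log2 fold changes of -0.32 (SE 0.212) and -0.02 (SE 0.395), and these 2 were also named afterwards. Slc3a2 was at 0.40 without SCFA 2 and 0.39 without both control 2 and SCFA 2. Slco2b1 was at 0.87 without control 2 and 0.79 without both, and Abcc1 was at -0.33 without control 2. With 2 counts in control 2, Slco2b1 passed the low-count filter only with its SCFA libraries. The 7 of 18 therefore describe the genes and test nothing. Tfrc was at -0.15 without control 2, -0.10 without SCFA 2 and 0.07 without both, and Mfsd2a at -0.15, -0.12 and -0.25.

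**Figure D4:**
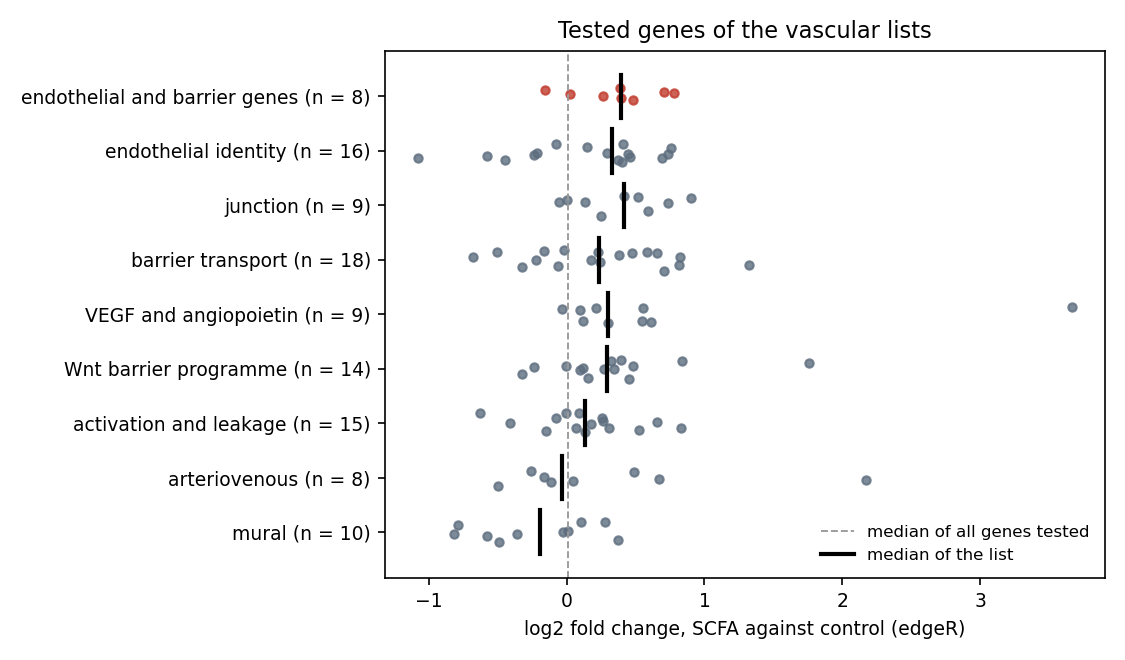
Log2 fold change of SCFA against control for every tested gene of the endothelial and barrier list (red) and of the 8 further vascular lists (grey), with the median of each list as a bar and that of all genes tested as a dashed line. Medians run from -0.19 in mural genes to 0.41 in junction genes, which without control 2 became 0.01 and 0.25, and the point at 3.67 is Flt4.

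In the VEGF and angiopoietin list 9 of 17 genes were tested, with a median of 0.30 and 8 above 0. Flt4, the third VEGF receptor (VEGFR3), was counted 7, 0 and 2 times in the control libraries and 42, 55 and 34 times in the SCFA libraries. All SCFA libraries lay above all controls, and the ratio of summed CPM was 12 (exact binomial 95% interval 6.14 to 26.9, counting error only). With fewer than 10 counts in every control, Flt4 passed the low-count filter through the SCFA libraries alone, and it was named for its small p. The ratio therefore describes the gene and is not used as support. The log2 fold change of Flt4, 3.67 (SE 1.02), did not pass (edgeR, adjusted p = 0.83). Apln, the endothelial peptide apelin, measured 17.1, 13.4 and 15.0 CPM in controls and 19.5, 21.6 and 25.6 CPM with SCFA (0.55, SE 0.245). The ligand gene Vegfa, with 10 rows, and Angpt1, with 2, were listed at 0.

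Wnt signalling from neural cells sets up and maintains the barrier. Its list had a median of 0.30 over 14 tested of 17, with 11 above 0, and of 0.15 without SCFA 2. The ligand gene Wnt7a was counted 30, 1 and 16 times in the control libraries and 63, 55 and 54 times in the SCFA libraries. The groups did not overlap, and the single count of control 2 was like that of Kdr. Wnt7a passed the low-count filter only with its SCFA libraries, so the separation describes the gene and is not used as support. Its log2 fold change was 1.76 (SE 0.797) and 1.23 without control 2. Apcdd1, a Wnt target of barrier endothelium, measured 4.53, 5.99 and 6.91 CPM in controls and 9.92, 12.3 and 8.93 CPM with SCFA (0.84, SE 0.36, edgeR adjusted p = 0.864).

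Genes of endothelial activation and leakage had a median of 0.13 over 15 tested of 22, with 10 above 0, which became 0.24 without control 2, 0.08 without SCFA 2 and 0.02 without both. Vcam1, the adhesion molecule that arrests leukocytes, measured 16.0, 5.76 and 13.2 CPM in controls and 18.6, 25.9 and 18.1 CPM with SCFA (0.83, SE 0.348), and 0.51 without control 2 or 0.32 without control 2 and SCFA 2. Cav2, a caveolin, was the 1 gene of the 99 with an unadjusted p under 0.05 in the lower direction, at 23.4, 33.8 and 28.4 CPM in controls and 24.3, 14.7 and 16.3 CPM with SCFA (-0.63, SE 0.259). The groups of Cav2 overlapped through SCFA 1, and its value was -0.36 without control 2 and SCFA 2.

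Arteriovenous genes had a median of -0.03 over 8 tested of 13, with 4 above 0. The direction rested on control 2, since without it the median was 0.29 with 6 of 8 above 0, while it was -0.10 without SCFA 2 and 0.09 over 7 genes without both. The transporter Slc38a5 had 10, 0 and 0 counts in controls and 9, 27 and 16 with SCFA, so that all its control counts came from control 1. Its log2 fold change of 2.17 (SE 1.32) was 6.92 without that library, a fitted value against controls at 0, and 1.33 without control 2 and SCFA 2. The Notch ligand Jag1 had a log2 fold change of 0.67 (SE 0.425), which was 0.43 without SCFA 2, 0.24 without control 2 and SCFA 2, and 1.07 without control 3.

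Mural genes, those of pericytes and smooth muscle around the vessels, had a median of -0.19 over 10 tested of 16, with 4 above 0. Without control 2 the median turned to 0.01 with 6 of 10 above 0, without SCFA 2 it was -0.43, and without both -0.09 over 9 genes. Anpep, a pericyte peptidase, measured 18.8, 18.4 and 11.8 CPM in controls and 13.1, 10.7 and 9.16 CPM with SCFA (-0.58, SE 0.299). Acta2, smooth muscle actin, measured 6.56, 3.46 and 4.50 CPM in controls and 0.731, 2.48 and 5.14 CPM with SCFA (-0.79, SE 0.662). Leaving out 1 library moved Acta2 to between -1.57 (without SCFA 3) and -0.34 (without SCFA 1). The summed level of the mural list was 171 to 181 CPM in controls and 170 to 180 CPM with SCFA. That of the endothelial identity list was 121 to 177 and 167 to 179 CPM. Neither sum separated the groups.

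Markers of other cells that share genes with the barrier were followed beside these values. Summed microglial markers were 262 to 377 CPM in controls and 414 to 643 CPM with SCFA, highest in SCFA 2, with 7 of 8 tested genes above 0 and Siglech and Ctss, which have several rows, listed at 0. Markers of the astrocyte endfeet that wrap the vessels summed to 354 to 438 and 500 to 630 CPM, again highest in SCFA 2, with 6 of 8 tested above 0 and 0 of 10 at 0. Both sums separated the groups, as Slc2a1, Flt1, Slc16a1 and Slc7a5 did with TMM scaling, and their part in those values was not tested. Gene by gene, every SCFA library lay above every control for 4 of the 8 microglial and 2 of the 8 endfoot genes tested. None lay below in either list, beside 6.42% above and 5.74% below over all genes. The mean log2 deviation of the endfoot genes overlapped, with control 3 at 0.0222 and SCFA 1 at -0.124. Choroid plexus markers, a tissue that also makes Slc2a1, Slco1c1 and occludin, summed to 28.2 to 38.5 CPM in controls and 29.3 to 35.1 CPM with SCFA, with Folr1 at 0. Slc13a4, at 19.9 to 25.3 CPM, made up most of that sum, and single markers differed. Ttr was counted 0, 0 and 0 times in controls and 13, 28 and 2 times with SCFA, and Cldn2 2, 1 and 7 times and 0, 0 and 0 times. Both were named after their values were seen. Of the 4 choroid plexus markers tested, 2 were above 0 and 2 below, and their part in the other values was not tested. Platelet markers summed to 4.69 to 8.99 and 3.28 to 7.22 CPM. The haemoglobin genes Hba-a1, Hba-a2, Hbb-bs and Hbb-bt, with 1 row each, were listed at 0 in all libraries. Alas2, the other red cell marker, had 3 counts in control 1, 4 in SCFA 3 and 0 elsewhere. How shared reads were counted is not known, so the 0 of the haemoglobin genes was not read as absence of red cells.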

How the data were processed

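The 6 libraries (3 SCFA, 3 control) were grouped by their titles. The authors deposited raw read counts, 1 row per RefSeq transcript, made with CASAVA 1.8.2 and featureCounts on the mouse build mm10, per the submitters' processing notes. The libraries were made with a kit for human FFPE RNA, per the labels' protocols, and the sources used here do not name the aligner, the strandedness or how shared reads were counted. Of 34755 rows, 34424 (99.05%) were matched to symbols of GRCm38.p6 and summed per symbol.

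Genes were tested with edgeR 4.0.16 (filterByExpr, minimum count 10 and minimum total 15; TMM; quasi-likelihood F test, two-sided, no covariate; Benjamini-Hochberg over 11969 genes, threshold 0.05) in R 4.3.3. Library sizes are totals over all rows. CPM uses TMM-scaled sizes, log2 CPM a prior count of 2, and the SE is the log2 fold change over the root of F. DESeq2 1.42.0 and limma-voom (limma 3.58.1) were alternatives, and 3 counts stood for 0.206 to 0.346 CPM. The fits were tested on simulated data with changes larger than those fitted for Slc2a1 and Flt1. That test cannot show how often changes of their size would be found.

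The genes, lists and alternatives were chosen with earlier results of these data known. Named are the 10 genes, the 2 genes with the smallest p from each of 8 vascular lists and the 5 most similar profiles; others are said to be named afterwards. P-values set the group difference against the spread between these libraries, with the variance of each gene drawn toward that of all genes. Intervals on single counts cover counting error only.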

Additional observations from a re-analysis of the deposited data

How the results depend on the processing

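The count of the 8 genes past the threshold was 0 in each direction in all 18 alternatives, and their median log2 fold change stayed above 0, from 0.156 to 0.527. Leaving out 1 library gave that same range, lowest without control 2. Of 144 fitted values for single genes, 136 kept their direction. The other 8 were Tie1 with total counts (0.0297), Cdh5 with limma-voom (-0.0265), Cdh5 without control 2 (-0.07), SCFA 1 (-0.10), SCFA 2 (-0.05) or both control 2 and SCFA 2 (-0.15), and Kdr without control 2 (-0.17) or without both (-0.091). With 1 library left out, the value of Cdh5 ran from -0.10 to 0.22 and that of Kdr from -0.17 to 1.02. The 287 values of the 16 named list genes all kept their direction and did not pass, and Slc38a5 has none under the filter on CPM above 1 in 3 libraries, which leaves it out. Flt4 came near the threshold with DESeq2 (adjusted p = 0.0523), and Slc16a1 had an adjusted p of 0.0959 without a filter on low counts (edgeR). Slc2a1 had an unadjusted p under 0.05 in 16 of 18 alternatives and Flt1 in 14, and their lowest adjusted p was 0.188 and 0.464, both without a filter on low counts.

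Over all genes, 1 was higher and 9 lower. Without a filter there were 30 and 25, DESeq2 gave 13 and 16, and limma-voom gave 0 and 0 (421 and 384 at an unadjusted p under 0.05). Without control 2 and SCFA 2 together there were 14 and 11, and with 1 library left out the ranges were 0 to 8 and 0 to 13 (edgeR, 164 to 477 and 218 to 382 at an unadjusted p under 0.05). The causes were not tested. With the replicate number as a block 10 were higher and 12 lower, none of them among the 8 genes, whose median was 0.466. Same-numbered libraries did not deviate together (r = -0.00206, 0.0101 and -0.00525), so the numbers were not read as a pairing. Counts of 23 to 41 for Tie1 and 1 to 64 for Kdr limit what could be seen for these genes.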

Other observations

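Of the vascular list genes, 34 had counts but too few for the test, with 1 to 80 counts each. Their summed CPM was higher with SCFA in 24 and lower in 10, and this was not tested. Every SCFA library lay above every control in 6 of the 34 and below in 0, where 6.42% and 5.74% of the genes tested did so. The same shares over all genes under the filter were not computed. The genes given here as counts were named after their values were seen. Among those that were lower, Sema3g, a semaphorin of arterial endothelium, was counted 40, 1 and 14 times in the control libraries and 4, 10 and 11 times in the SCFA libraries, with control 1 highest and control 2 lowest. Cldn3, a claudin, had 27, 0 and 5 counts in controls and 4, 13 and 11 with SCFA, and control 1 was again highest. Egfl7, a secreted endothelial protein with 4 rows, had 6, 6 and 0 counts in controls and 0, 0 and 2 with SCFA. Among those that were higher, Marveld2, which encodes tricellulin, a protein of junctions where 3 cells meet, was counted 0, 1 and 0 times in the control libraries and 17, 0 and 5 times in the SCFA libraries, so most of its counts came from SCFA 1. Bsg encodes basigin, the partner that carries MCT1 to the cell surface, and had 4, 0 and 2 counts in controls and 15, 5 and 12 with SCFA. The CPM ratio of Bsg was 4.41 (exact binomial 95% interval 1.82 to 12.9), and every SCFA library held more counts than any control. The nearest were 5 counts in SCFA 2 and 4 in control 1, or 0.344 and 0.324 CPM. Slc7a1, a cationic amino acid carrier, had 1, 0 and 0 counts in controls and 2, 8 and 4 with SCFA (11.6, interval 1.76 to 489). Icam2, an endothelial adhesion molecule, had 2, 0 and 8 counts in controls and 2, 24 and 4 with SCFA, and its higher sum rested on SCFA 2. Marveld2, Bsg and Slc7a1 have 2 rows each, so shared reads may be missing, and the intervals cover counting error only.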
